A study of Mus musculus with 30 samples.

Results

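The IG-TRE is the transcriptional regulatory element of the intergenic control region between the imprinted genes Dlk1 and Meg3. Its amplicon held 7 of the 79 CpGs read in the series, and its 4 libraries were 4 of 30. Positions on the amplicon reference were taken as its CpGs if 10% or more of the reads in one of its libraries had a call there. The 7 CpGs lay at positions 58, 71, 130, 214, 250, 286 and 339 of the reference, a span of 281 bp, and are named by these positions. Each of them was called in 40.8% to 96.4% of a library's reads, whereas no other position was called in more than 0.875%.

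The study measured CpG methylation after bisulfite conversion and amplicon sequencing in wild-type and mutant mice and cells. At the IG-TRE the 4 groups were wild-type V6.5 mESC (mouse embryonic stem cells), Gzf1 knockout V6.5 mESC, the trunk of wild-type embryos at E10.5 (the embryonic day) and the trunk of Gzf1 knockout embryos at E10.5. Each group had 1 library. The labels do not say whether the knockout cells are a single clone, which allele the knockout carries, how many embryos gave a library or which strain the embryos had. V6.5 cells and embryos can therefore differ in genetic background as well as in cell type, and these cannot be told apart. Calls on amplicon reads hold neither expression of cell type markers nor the Gzf1 locus, so the source and genotype labels were not checked against the data.

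Imprinted genes are expressed from 1 parental copy, and the choice is kept by DNA methylation of a control region. In the Dlk1-Dio3 domain this intergenic region is methylated on the paternal copy. It consists of a CpG island, the IG-CGI, which binds the zinc finger protein Zfp57 when methylated, and of the IG-TRE, which has enhancer features on the unmethylated maternal copy and is needed there for Meg3 expression. Gzf1 encodes a zinc finger protein, which the series' title describes as binding in a methylation-dependent way opposite to that of Zfp57. Dlk1 lies on chromosome 12 from 109452485 to 109463336 and Meg3, a long non-coding RNA gene, from 109540996 to 109571729 (GRCm38.p6). The calls are numbered on the amplicon reference, so the CpGs were not placed on the chromosome, and parental copies were not separated on the reads.

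The 4 libraries held 338 to 388 reads and 1708 to 2320 calls, and the submitters' file names place all 4 in the same sequencing order. Calls thinned out along the amplicon. Between 92.6% and 96.4% of reads were called at CpG 58, but 40.8% of wild-type trunk reads, 47.2% of wild-type mESC reads, 53.1% of knockout trunk reads and 69.8% of knockout mESC reads were called at CpG 339. Most reads had no call missing inside: 92.8% to 97.6% had calls in an unbroken run. Whether the reads or their alignments ended where the calls did was not tested. The mean level of CpGs 58, 71 and 130 in reads that reached CpG 339, minus that in reads that did not, was 4.87 points in wild-type mESC (95% interval -4.33 to 14.1), 5.65 in knockout mESC (-2.47 to 13.8), -3.90 in wild-type trunk (-12.3 to 4.45) and 0.727 in knockout trunk (-3.66 to 5.12). All 4 intervals included 0. Reads called at all 7 CpGs numbered 154 in wild-type mESC, 233 in knockout mESC, 116 in wild-type trunk and 162 in knockout trunk. All intervals and tests count reads, PCR copies included, so they cover counting error alone, and with 1 library per group they compare libraries, not conditions.

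In wild-type mESC the IG-TRE was evenly methylated from end to end. The methylation level, the percentage of calls at a CpG that are methylated, ran from 32.3% at CpG 130 to 36.1% at CpG 339, a spread of 3.79 points. With 169 to 345 calls per CpG the Wilson 95% intervals of all 7 overlapped, the widest being 29.2% to 43.6% at CpG 339. The mean over the 7 CpGs was 33.8% (29.5 to 38.1).

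The other 3 libraries were uneven. In knockout mESC levels ran from 29.8% at CpG 286 to 76.3% at CpG 58, a spread of 46.5 points around a mean of 59.0% (56.0 to 62.1). Wild-type trunk ran from 52.1% at CpG 130 to 72.5% at CpG 58, around 63.7% (59.9 to 67.6). Knockout trunk ran from 73.7% at CpG 130 to 96.7% at CpG 58, around 86.8% (84.8 to 88.8). CpG 58 had the highest level in these 3 libraries.

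**Figure D1:**
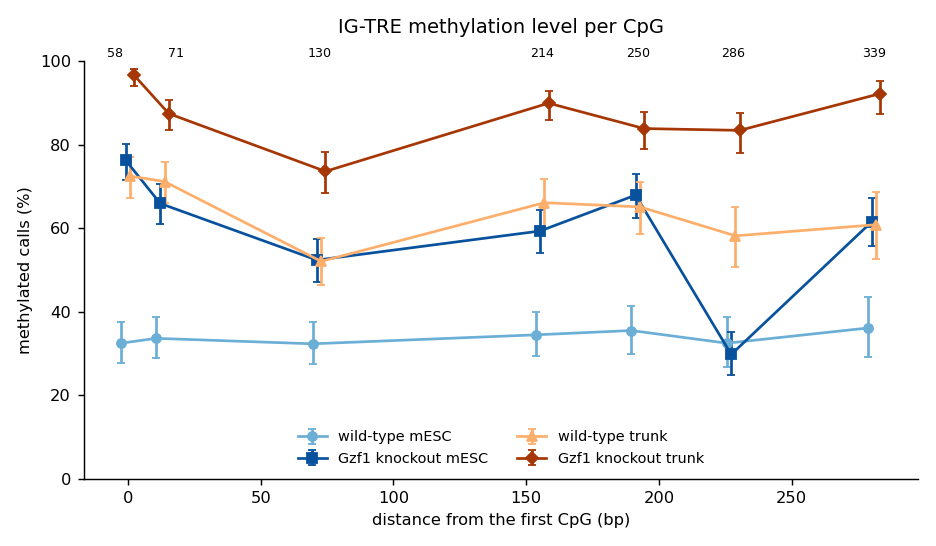
Methylation level (percent of calls) of the 7 IG-TRE CpGs against their distance in bp from the first CpG, with the CpG names above the panel; points are single libraries and bars are Wilson 95% intervals over reads. Wild-type mESC is flat near 34%, both trunk libraries dip at CpG 130, and knockout mESC dips at CpG 286 to 29.8%.

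CpG 130 was the low point of both trunk libraries. Its level was 32.3% in wild-type mESC (interval 27.5 to 37.6), 52.4% in knockout mESC (47.2 to 57.5), 52.1% in wild-type trunk (46.3 to 57.8) and 73.7% in knockout trunk (68.5 to 78.2). In trunk these intervals lay below those of both neighbours: CpG 71 had 71.2% (66.0 to 75.9) and CpG 214 had 66.1% (60.1 to 71.7) in wild type, and 87.5% (83.5 to 90.7) and 90.0% (85.9 to 93.0) in the knockout. Counted on reads called at both CpGs of a pair, the split of methylated calls restates the gap in level and is no separate support. Among wild-type trunk reads called at CpGs 71 and 130, 75 were methylated at CpG 71 alone and 17 at CpG 130 alone. The same split was 65 to 21 in knockout trunk, 81 to 33 in knockout mESC and 19 to 17 in wild-type mESC, so it was nearly even in the wild-type cells.

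CpG 286 was the low point of knockout mESC. Its level was 32.5% in wild-type mESC (26.7 to 38.8), 29.8% in knockout mESC (24.9 to 35.2), 58.2% in wild-type trunk (50.8 to 65.2) and 83.5% in knockout trunk (78.1 to 87.7). In knockout mESC its neighbours stood at 68.0% (CpG 250, 62.6 to 72.9) and 61.6% (CpG 339, 55.7 to 67.2). Of 285 knockout mESC reads called at CpGs 250 and 286, 112 were methylated at CpG 250 alone and 4 at CpG 286 alone, which again restates the gap. In wild-type mESC the split was 22 to 6 of 222 reads, in wild-type trunk 27 to 15 of 172 and in knockout trunk 24 to 20 of 223. The 165 fully called knockout mESC reads unmethylated at CpG 286 had 41 different patterns over the 7 CpGs. The most frequent, a gap at CpG 286 alone, held 25 of these reads. Whether they include copies of the same molecules was not tested.

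The question of the knockout comparison is what loss of Gzf1 does to methylation of the element. In mESC 6 of 7 CpGs were higher in the knockout and CpG 286 was not called, where 86.3% of all 51 CpGs of the 3 endogenous amplicons were called higher. The call required a gap of 20 points or more between the levels, and an adjusted p under 0.05 in Fisher's exact test (Benjamini-Hochberg, over those 51 CpGs). CpG 58 rose from 32.5% to 76.3%, by 43.8 points (interval 37.0 to 50.04, adjusted p = 1.47e-32 by Fisher's exact test). CpG 250 rose by 32.5 points (24.4 to 39.9), CpG 71 by 32.3 (25.2 to 39.0), CpG 339 by 25.5 (16 to 34.4) and CpG 214 by 24.9 (17.2 to 32.2). CpG 130 rose by 20.1 points (12.7 to 27.1), just past the minimum, and by 19.9 points in reads called at all 7 CpGs. At CpG 286 the knockout minus wild-type difference was -2.69 points (-10.7 to 5.202, adjusted p = 0.508 by Fisher's exact test), so a rise of 20 points lies outside its interval. The mean over the 7 CpGs rose by 25.2 points (19.9 to 30.5). With identical read patterns counted once, which leaves 97 wild-type and 154 knockout mESC patterns, 2 CpGs were called (250 and 339) and the mean difference was 11.5 points (3.83 to 19.2). Whether identical reads are PCR copies or separate molecules in the same state was not tested. By its construction this setting merges both, uniform reads above all, and leaves fewer reads to test. The mean level moved from 33.8% to 44.7% in wild-type mESC and from 59.0% to 56.2% in knockout mESC. In trunk it moved from 63.7% to 55.8% in wild type and from 86.8% to 71.5% in the knockout. A call lost in this setting, here or below, therefore cannot tell copies from this merging.

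In trunk 5 of 7 CpGs were higher in the knockout, against 88.2% of the 51 CpGs called higher there. CpG 339 rose from 60.9% to 92.3%, by 31.4 points (22.3 to 40.3, adjusted p = 2.39e-11 by Fisher's exact test). CpG 286, which was not called in mESC, rose from 58.2% to 83.5%, by 25.3 points (16.5 to 33.8). CpGs 58, 214 and 130 rose by 24.1, 23.9 and 21.6 points. The other 2 CpGs fell short of 20 points but not of the p threshold: the difference was 16.3 points at CpG 71 (10.1 to 22.4, adjusted p = 4.19e-07) and 18.8 at CpG 250 (10.98 to 26.4, adjusted p = 3.17e-06), both by Fisher's exact test. The mean rose by 23.1 points (18.7 to 27.4). With identical patterns counted once, 2 CpGs were called (58 and 339) and the mean difference was 15.6 points (8.88 to 22.4).

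The knockout effect on the mean level was smaller at the IG-TRE than at the IG-CGI in both sources. At the IG-CGI the mean rose by 33.7 points in mESC (30.8 to 36.5) and by 40.8 points in trunk (38.3 to 43.4). The IG-TRE effect minus the IG-CGI effect was -8.45 points in mESC (-14.5 to -2.45) and -17.8 in trunk (-22.8 to -12.7). Against the Gtl2-DMR, the differentially methylated region at Meg3, it was 0.520 points in mESC (-12.8 to 13.8) and -7.75 in trunk (-19.6 to 4.13), and both intervals included 0. In knockout trunk the mean levels were close, 86.8% at the IG-TRE, 85.9% at the IG-CGI and 88.8% at the Gtl2-DMR. Wild-type trunk had 63.7%, 45.1% and 58.0%, so the smaller IG-TRE difference there went with a higher wild-type level. In the same order knockout mESC had 59.0%, 70.4% and 79.4%, and wild-type mESC 33.8%, 36.8% and 54.7%. The IG-TRE effect on the mean in mESC includes CpG 286, at -2.69 points, where the called CpGs rose by 20.1 to 43.8 points. Its contrast with the IG-CGI was not calculated without CpG 286, so a smaller effect at the other CpGs is not shown in mESC.

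**Figure D2:**
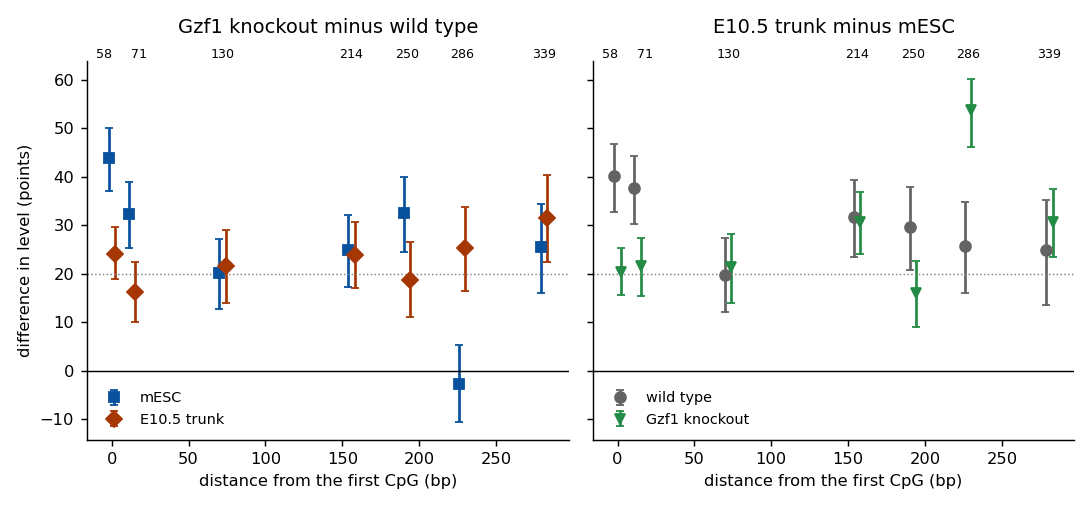
Difference in methylation level in points at each IG-TRE CpG against its distance from the first CpG, with 95% intervals of the difference over reads (Newcombe); the left panel shows knockout minus wild type in mESC and trunk, the right panel trunk minus mESC in each genotype, and the dotted line marks 20 points. CpG 286 stands at -2.69 points for the knockout in mESC and at 53.7 points for trunk against mESC in the knockout.

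Whether the knockout effect differed between mESC and trunk was tested by the interaction of genotype and source in a logistic model at each CpG. Of the 7 IG-TRE CpGs 2 differed, CpG 286 and CpG 339, against 62.7% of the 51 CpGs, and neither did with identical read patterns counted once. At the IG-CGI 26 of 29 CpGs differed with a larger effect in trunk in points and 1 with a smaller one. Its libraries held 1218 to 1917 reads, against 338 to 388 at the IG-TRE. The Gtl2-DMR, with 60 to 119 reads, had 3 of 15. These shares were not compared at equal depth. At CpG 286 the effect in trunk exceeded that in mESC by 28.0 points (16.2 to 39.8, chi-square likelihood ratio test, adjusted p = 6.21e-06). At CpG 339 the excess was 5.91 points (-7.02 to 18.8, adjusted p = 0.0152 by the same chi-square test). The knockout effect on the log2 odds of methylation, which is what the model compares, was 1.5 in mESC and 2.91 in trunk there. On the scale of points, 3 further CpGs had a smaller effect in trunk with an interval that left out 0, namely CpG 58 by 19.7 points (-28.1 to -11.2), CpG 71 by 16.03 (-25.3 to -6.77) and CpG 250 by 13.7 (-24.7 to -2.72). These CpGs did not pass the chi-square test on the odds scale, with adjusted p = 0.223 for CpG 58 and 0.310 for both others. The direction turned at CpG 58 (6.29 points) and CpG 71 (7.33) with identical read patterns counted once. Wild-type trunk started from 72.5%, 71.2% and 65.1% at these CpGs and wild-type mESC from 32.5%, 33.6% and 35.5%.

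The tissue comparison was made within each genotype. In wild type 6 of 7 CpGs were higher in trunk than in mESC, against 11.8% of the 51 CpGs, and these were the 6 CpGs called in the whole comparison. None of the 29 CpGs of the IG-CGI and none of the 15 of the Gtl2-DMR was called. CpG 58 had the largest difference, 72.5% against 32.5% or 40.1 points (32.8 to 46.7, adjusted p = 1.76e-23 by Fisher's exact test). CpG 71 followed with 37.6 points (30.3 to 44.3), then CpG 214 with 31.7, CpG 250 with 29.6, CpG 286 with 25.7 and CpG 339 with 24.8. CpG 130 missed the minimum, with 19.8 points (11.97 to 27.2, adjusted p = 3.00e-06 by Fisher's exact test). CpG 130 aside, the differences were smaller from each CpG to the next along the amplicon, with overlapping intervals between neighbours. This order did not hold in reads called at all 7 CpGs, with 25.7 points at CpG 250, 23.3 at CpG 286 and 25.9 at CpG 339. With identical read patterns counted once, none of the 7 CpGs was called, and the mean difference was 11.2 points (3.22 to 19.1).

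The mean level was 29.9 points higher in wild-type trunk than in wild-type mESC (24.1 to 35.7) at the IG-TRE, 8.33 points higher at the IG-CGI (4.90 to 11.8) and 3.29 points higher at the Gtl2-DMR (-11.8 to 18.4). The tissue effect at the IG-TRE exceeded that at the IG-CGI by 21.6 points (14.8 to 28.3) and that at the Gtl2-DMR by 26.6 points (10.4 to 42.8). Apart from wild-type mESC at the Gtl2-DMR, the libraries of these amplicons came from other sequencing orders than those of the IG-TRE, so amplicon and order cannot be told apart in these contrasts, those of the knockout effect included. Within the Gtl2-DMR, order thus also differed between wild-type mESC and the libraries it was compared with. There it cannot be told apart from genotype in mESC or from tissue in wild type. The Gtl2-DMR libraries of wild type held 60 and 64 reads.

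Among knockout libraries 6 of 7 CpGs were again higher in trunk, against 25.5% of the 51 CpGs. CpG 286 had the largest difference of the 7, 83.5% against 29.8% or 53.7 points (46.1 to 60.2, adjusted p = 6.46e-36 by Fisher's exact test). The other differences lay between 15.9 points at CpG 250, which was not called (adjusted p = 1.50e-05 by Fisher's exact test), and 30.7 points at CpGs 339 and 214. The mean rose by 27.7 points (24.1 to 31.4), 12.2 points more than at the IG-CGI (8.21 to 16.3) and 18.3 more than at the Gtl2-DMR (10.8 to 25.8). CpG 130, which rose by 21.3 points, differed by 18.6 points in reads called at all 7 CpGs and was then not called. The mean tissue effect in the knockout minus that in wild type was -2.15 points (-8.99 to 4.69). With identical read patterns counted once, CpG 286 alone was called and the mean difference was 15.3 points (8.79 to 21.7). The knockout and tissue comparisons share libraries, so their values are not independent of each other.

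Single reads show how these levels were made up. Reads with 5 or more calls fell into 3 classes by their methylated share, namely mostly methylated (70% or more), mostly unmethylated (30% or less) and between. Wild-type mESC had 26.2% mostly methylated, 13.8% between and 60% mostly unmethylated of 260 reads. Knockout mESC had 50%, 27.4% and 22.6% of 314 reads. Wild-type trunk had 53.1%, 27.5% and 19.3% of 207 reads. Knockout trunk had 88.0%, 9.65% and 2.32% of 259 reads. All 12 differences between these classes in the 4 comparisons passed Fisher's exact test with adjustment over the 12, the highest adjusted p being 0.000283, and 5 of the 12 passed with identical read patterns counted once. Reads between the bounds were more frequent in the knockout in mESC, by 13.5 points (6.92 to 19.9), and less frequent in the knockout in trunk, by 17.9 points (-25.0 to -10.9). With bounds of 80% and 20% all 12 passed again, but the sizes moved: in mESC the knockout minus wild-type difference was 30.6 points for reads between and 9.91 points for mostly methylated reads, the latter against 23.8 with the bounds above.

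**Figure D3:**
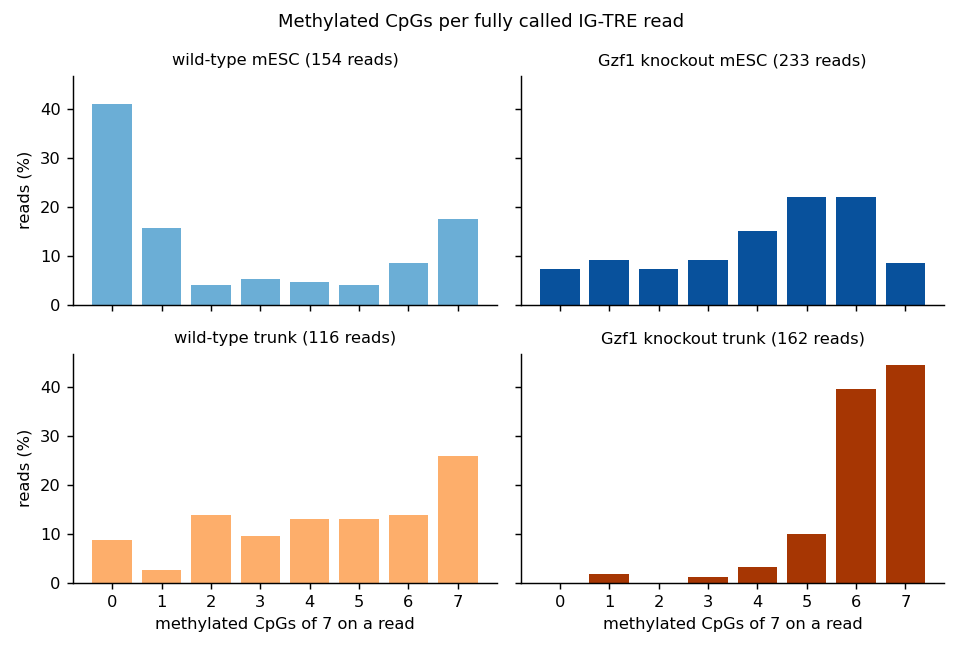
Share of reads (percent) with 0 to 7 methylated CpGs among IG-TRE reads called at all 7 CpGs, one panel per library with its number of reads. Wild-type mESC has its peaks at 0 and 7, knockout mESC at 5 and 6, wild-type trunk is broad with a peak at 7, and knockout trunk sits at 6 and 7.

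In fully called reads, uniform patterns (all 7 CpGs methylated or all 7 unmethylated) made up the majority in wild-type mESC and in no other of the 4 libraries. Fully unmethylated reads made up 40.9% of wild-type mESC reads (Wilson interval 33.5 to 48.8), 7.30% of knockout mESC reads (4.60 to 11.4), 8.62% of wild-type trunk reads (4.75 to 15.1) and 0 of 162 knockout trunk reads (upper bound 2.32%). Fully methylated reads made up 17.5% (12.3 to 24.3), 8.58% (5.63 to 12.9), 25.9% (18.8 to 34.5) and 44.4% (37.0 to 52.1) in the same order. Knockout mESC thus had fewer fully methylated reads than wild-type mESC, by 8.95 points (-16.3 to -2.20, adjusted p = 0.0128 by Fisher's exact test over 12 comparisons), although its mean level was higher. This gap lay at CpG 286. Reads methylated at all 6 other CpGs had close shares, 31 of 154 in wild-type mESC and 45 of 233 in knockout mESC. Of these, 4 and 25 were unmethylated at CpG 286.

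Reads with both methylated and unmethylated CpGs were 41.6% of fully called reads in wild-type mESC (34.1 to 49.5) and 84.1% in knockout mESC (78.9 to 88.3), a difference of 42.6 points (33.1 to 51.1, adjusted p = 5.46e-17 by Fisher's exact test). In trunk they were 65.5% in wild type (56.5 to 73.5) and 55.6% in the knockout (47.9 to 63.0), a difference of -9.96 points that did not pass (-21.1 to 1.73, adjusted p = 0.108 by Fisher's exact test). Between tissues, mixed reads were more frequent in wild-type trunk than in wild-type mESC by 24.0 points (11.97 to 34.9) and less frequent in knockout trunk than in knockout mESC by 28.6 points (-37.3 to -19.5).

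The mixed reads had different makeups. Knockout trunk mixed reads were nearly complete: 64 of its 162 fully called reads had a single unmethylated CpG, and 5 had 4 and 16 had 5 methylated CpGs. Wild-type trunk reads spread over the range, with 16, 11, 15, 15 and 16 of 116 reads having 2, 3, 4, 5 and 6 methylated CpGs. Wild-type mESC reads clustered at the ends, with 24 of 154 reads having 1 methylated CpG and 13 having 6. Knockout mESC reads had a broad peak, with 35, 51 and 51 of 233 reads having 4, 5 and 6 methylated CpGs. Fully called reads showed the following numbers of distinct patterns: 28 in wild-type mESC, 64 in knockout mESC, 47 in wild-type trunk and 23 in knockout trunk, of 128 possible and from unequal numbers of reads.

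The most frequent mixed patterns were those with a gap or a stray call at the CpGs named above. In knockout mESC the leading 3 were a gap at CpG 286 alone (25 of 233 reads), at CpGs 286 and 339 (14 reads) and at CpGs 130 and 286 (13 reads). The first of these was more frequent than the fully methylated pattern, with 20 reads. In knockout trunk they were a gap at CpG 130 alone (26 of 162 reads), CpG 250 alone (12) and CpG 71 alone (9). In wild-type trunk they were a gap at CpG 130 alone (5 of 116 reads), at CpGs 130 and 339 (4) and at CpGs 130, 286 and 339 (4). In wild-type mESC the leading mixed pattern was methylation of CpG 339 alone (13 of 154 reads). It was followed by 4 patterns of 4 reads each, with methylation at CpG 250 alone or at CpGs 250 and 286, or with a gap at CpG 71 or at CpG 286. The lead of gaps at CpG 286 in knockout mESC and at CpG 130 in trunk goes with the low levels there and is no separate support.

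Some of these CpGs departed from the rest of their read, mainly in single libraries. CpGs 286 and 130 were singled out above for their low levels. Gaps there go with those levels, so their counts are no separate support. In knockout mESC, 45 fully called reads were methylated at all 6 CpGs other than CpG 286, and 25 of them (55.6%, Wilson interval 41.2 to 69.1) were unmethylated at CpG 286. The same count was 4 of 31 reads in wild-type mESC, 2 of 32 in wild-type trunk and 8 of 80 in knockout trunk. For CpG 130 it was 26 of 98 reads in knockout trunk (26.5%, 18.8 to 36.0), 5 of 35 in wild-type trunk, 5 of 25 in knockout mESC and 0 of 27 in wild-type mESC, which allows up to 12.5% by the Wilson bound. For CpG 339 it was 10 of 30 reads in knockout mESC (33.3%, 19.2 to 51.2), 3 of 30 in wild-type mESC, 1 of 31 in wild-type trunk and 3 of 75 in knockout trunk. CpGs 58 and 214 also had 3 of 75 in knockout trunk. At the other end, CpG 339 was methylated in 13 of 76 wild-type mESC reads whose other 6 CpGs were unmethylated, where the other CpGs had 0 to 4 reads of 63 to 67.

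**Figure D4:**
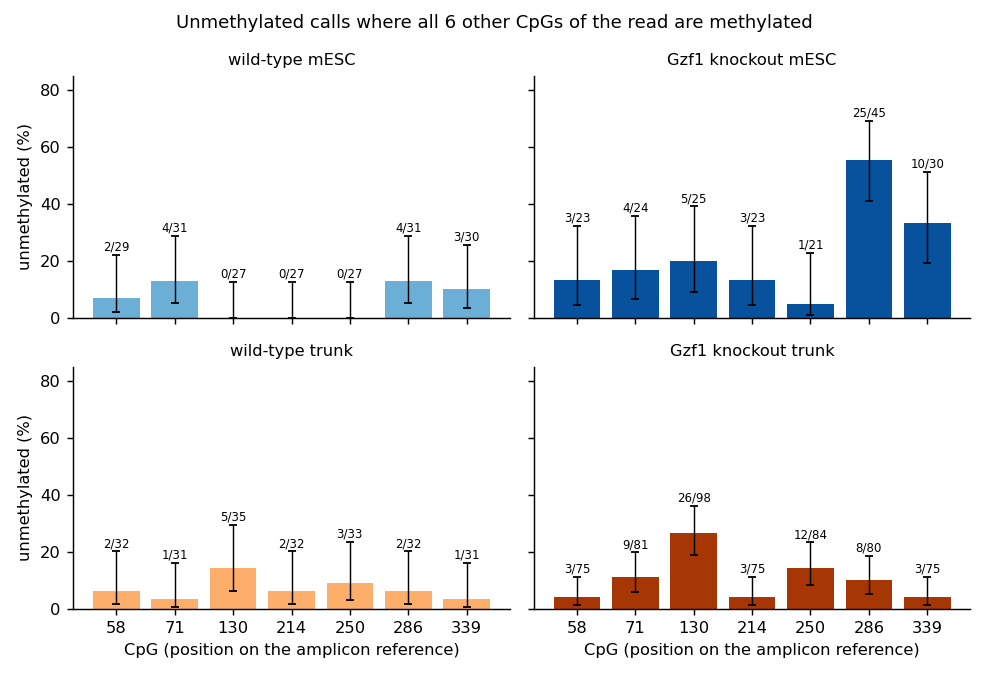
Percent unmethylated at each IG-TRE CpG among fully called reads whose 6 other CpGs are all methylated, one panel per library; bars carry Wilson 95% intervals and the counts stand above them. CpG 286 stands out in knockout mESC with 25 of 45 reads, and CpG 130 leads in knockout trunk with 26 of 98.

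As a share of mixed reads, those with a single change of state along the read were most frequent in wild-type mESC. In wild-type mESC 31 of 64 mixed reads had a single switch between neighbouring CpGs (48.4%). The counts were 53 of 196 in knockout mESC (27.0%), 14 of 76 in wild-type trunk (18.4%) and 9 of 90 in knockout trunk (10%). Over all fully called reads this lead did not hold, with 31 of 154 in wild-type mESC and 53 of 233 in knockout mESC. A single switch in the first or last interval means that CpG 58 or CpG 339 alone departs from its read. Such reads were 3 and 16 of the 31 in wild-type mESC, and 8 and 15 of the 53 in knockout mESC. They were 2 and 1 of the 14 in wild-type trunk, and 6 and 3 in knockout trunk, which had no others. Many single-switch reads in wild-type mESC were thus departures of CpG 339 alone. Of the 53 in knockout mESC, 41 were methylated at the CpG 58 end and 12 at the CpG 339 end. Reads with 4 or more switches were 1 of 154 in wild-type mESC, 41 of 233 in knockout mESC (17.6%), 9 of 116 in wild-type trunk (7.76%) and 7 of 162 in knockout trunk (4.32%). In knockout trunk 64 of the 90 mixed reads had 1 unmethylated CpG, which allows at most 2 switches. By interval, switches were most frequent on either side of CpG 286 in knockout mESC, with 41.6% of reads before and 46.8% after it, and on either side of CpG 130 in wild-type trunk, with 34.5% and 38.8%.

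Co-methylation of CpG pairs was strongest in wild-type mESC. It is given as the phi coefficient, the correlation of the 2 calls over reads called at both CpGs, which is 1 when they always match and 0 when they are unrelated. The mean phi over the 21 pairs was 0.608 in wild-type mESC (95% interval 0.547 to 0.668), 0.278 in knockout mESC (0.231 to 0.326), 0.348 in wild-type trunk (0.282 to 0.414) and 0.149 in knockout trunk (0.0773 to 0.221). The knockout minus wild-type difference was -0.330 in mESC (-0.407 to -0.253) and -0.199 in trunk (-0.297 to -0.102). Trunk minus mESC was -0.260 in wild type (-0.349 to -0.170) and -0.129 in the knockout (-0.215 to -0.0432). Each interval left out 0. With identical read patterns counted once, those of the trunk knockout difference (-0.0258, -0.137 to 0.0857) and of trunk minus mESC in the knockout (-0.0508, -0.159 to 0.0571) included 0. The other 2 differences were -0.132 (-0.246 to -0.0183) in mESC and -0.157 (-0.274 to -0.0398) in wild type. That setting merges uniform reads, which lowers phi by its construction. Among mixed reads alone, a choice that lowers phi by its construction, the mean phi was 0.120 in wild-type mESC, 0.108 in knockout mESC, 0.0386 in wild-type trunk and 0.0208 in knockout trunk, and the intervals of both knockout minus wild-type differences included 0. Phi also moves with the levels, whose part in these differences was not tested.

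Phi was lower at longer distances, least clearly in knockout trunk. The mean phi of the 9 pairs up to 100 bp apart and of the 12 farther pairs was 0.691 and 0.546 in wild-type mESC, 0.321 and 0.246 in knockout mESC, 0.422 and 0.293 in wild-type trunk, and 0.183 and 0.123 in knockout trunk. In wild-type mESC the closest pair, CpGs 58 and 71 at 13 bp, had the highest phi, 0.842 over 343 reads, and the farthest pair, CpGs 58 and 339 at 281 bp, had 0.481 over 163 reads. The lowest was 0.467 for CpGs 71 and 339. The closest pair was also the highest in knockout mESC (0.510) and wild-type trunk (0.620), where the farthest had 0.152 and 0.169. The farthest pair was the lowest in wild-type trunk, while in knockout mESC the lowest was CpGs 58 and 286 (0.107). Spearman's rho of phi with distance over the 21 pairs was -0.788 in wild-type mESC, -0.599 in knockout mESC, -0.703 in wild-type trunk and -0.246 in knockout trunk. The pairs share CpGs and reads, so these are descriptions.

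In knockout trunk the highest phi was 0.344 for CpGs 286 and 339, at 53 bp, and the lowest -0.109 for CpGs 58 and 130. The closest pair had -0.0716 over 323 reads and the farthest -0.0415 over 175. Both contain CpG 58, which was unmethylated in 11 of 329 calls. In both pairs 0 reads were unmethylated at both CpGs, so neither phi could be lower at these levels. Resting on so few unmethylated calls at CpG 58, these 2 values say little of distance. The 6 pairs with CpG 58 averaged -0.0227, where the other CpGs averaged 0.108 to 0.224 with their partners. Matching calls were frequent in this library: the 2 calls of a pair matched in 80.6% of reads on average, where the levels alone would give 77.3%. In wild-type mESC they matched in 82.1%, where the levels alone would give 54.7%.

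**Figure D5:**
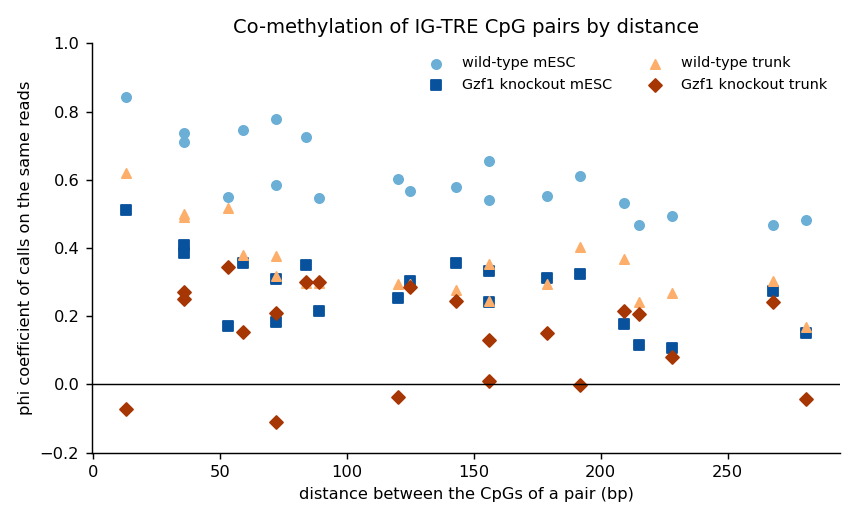
Phi coefficient of the calls of each of the 21 IG-TRE CpG pairs against the distance in bp between them, 1 point per pair and library. Wild-type mESC lies highest and declines with distance from 0.842, and knockout trunk lies lowest with several pairs near 0.

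Against the IG-CGI, wild-type IG-TRE reads were more often mixed. To compare equal numbers of CpGs, 7 evenly spaced CpGs of the other amplicon were used (a span of 218 bp at the IG-CGI and 306 bp at the Gtl2-DMR), and reads with 2 to 5 methylated CpGs of 7 were counted. In wild-type trunk these were 57 of 116 IG-TRE reads (49.1%) and 124 of 1076 IG-CGI reads (11.5%), a difference of 37.6 points (28.5 to 46.8, Fisher's exact test over 8 comparisons, adjusted p = 2.11e-19). In wild-type mESC they were 17.5% and 8.79%, in knockout mESC 53.2% and 31.8%, with adjusted p = 0.00540 and 2.08e-09 by Fisher's exact test. With CpGs chosen at the IG-TRE spacing, the wild-type mESC difference of 8.74 points became 5.43 and did not pass (adjusted p = 0.110, exact test), and with 1 to 6 of 7 counted as mixed it was 18.4 (adjusted p = 1.02e-05). In knockout trunk the shares were 14.2% and 17.7% (difference -3.48 points, -8.43 to 2.99, adjusted p = 0.373, exact test). Counting reads with 1 to 6 of 7 as mixed turned that difference to 15.1 points (adjusted p = 0.000599, exact test), the IG-TRE library having 64 reads with 6. The 4 comparisons with the Gtl2-DMR, which had 15 to 34 fully called reads, did not pass. That in knockout mESC, a difference of 17.9 points (-0.0479 to 33.1), was 37.3 points at the IG-TRE spacing (adjusted p = 1.27e-05, exact test). Mean phi of pairs up to 100 bp apart was 0.691 at the IG-TRE and 0.855 at the IG-CGI in wild-type mESC, and 0.422 and 0.794 in wild-type trunk. Apart from wild-type mESC at the Gtl2-DMR, the other amplicons' libraries came from other sequencing orders than the IG-TRE libraries. Amplicon and order therefore cannot be told apart in these contrasts of mixed reads and phi either.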

How the data were processed

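Per the labels, DNA was bisulfite converted with a Zymo kit, amplified by nested PCR and read as Nanopore amplicons by Plasmidsaurus; bisulfite does not separate 5-methylcytosine from 5-hydroxymethylcytosine. The deposited files give, per read and CpG, 1 call on the original top strand. Per the file headers, version 0.22.3 of Bismark's methylation extractor wrote them; Bismark 0.24.2 and mm10 stand in the submitters' processing notes. How reads were filtered and aligned is not stated in the sources used here. Conversion at other cytosines was not analysed here, and no amplicon sequence was used here.

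From the calls of the 4 IG-TRE libraries, and of the IG-CGI and Gtl2-DMR libraries of the same groups, levels were computed at CpGs with at least 10 calls. Single CpGs have Wilson 95% intervals and differences Newcombe intervals. Intervals of means use each read's contribution to the mean, reads as the unit. Fisher's exact tests and logistic interaction tests were adjusted over the 51 CpGs of the 3 amplicons. All 7 CpGs are named; of pairs the closest, the farthest and the extremes of phi; of patterns the uniform and the 3 most frequent others, except that ties are given together. The splits by neighbouring CpGs were chosen once their values were known. The methods were tested on simulated data. Members, lists and tests were chosen with earlier results of these data known. Software was Python 3.11.15, scipy 1.17.1 and statsmodels 0.14.6.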

Additional observations from a re-analysis of the deposited data

Results flagged for a closer look

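At CpG 286 the genotype effect in trunk minus that in mESC was 28.0 points, and the logistic interaction test of this difference (chi-square likelihood ratio) passed (adjusted p = 6.21e-06). The knockout minus wild-type difference was 25.3 points in trunk and -2.69 points in mESC. With identical read patterns counted once the excess was 14.0 points and did not pass (adjusted p = 0.378, chi-square), and the range of the excess over the alternatives was 14.0 to 32.7 points.

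At CpG 339 the genotype effect in trunk minus that in mESC was 5.91 points, with an adjusted p of 0.0152 in the same chi-square test. With identical read patterns counted once it was -7.35 points (chi-square, adjusted p = 0.825), and in reads called at all 7 CpGs 7.88 points (adjusted p = 0.0134). CpG 339 had 138 to 271 calls per library, the fewest of the 7 CpGs.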

How the results depend on the processing

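Of 151 values recalculated for the comparisons, 115 kept their direction and their side of the threshold or moved by less than their error. The 115 include values with a minimum of 5 or 30 calls per CpG. Those settings could not move the IG-TRE levels, because every CpG had at least 138 calls, so the count overstates how far the values were tried. Counting identical read patterns once changed most values: it left 90 to 154 distinct patterns per library. Merging uniform reads moves levels and phi by construction, so these changes cannot tell PCR copies from separate molecules in the same state. The mean differences became 11.5 points (knockout minus wild type in mESC), 15.6 (the same in trunk), 11.2 (trunk minus mESC in wild type) and 15.3 (in the knockout). The CpGs called in these comparisons became 2, 2, 0 and 1, and those with a genotype effect that differed between sources 0. The excess at CpG 339 turned to -7.35 points, and the uncalled values at CpG 58 and CpG 71 to 6.29 and 7.33. In the same setting 7 read class differences no longer passed Fisher's exact test. These were mostly methylated reads, knockout minus wild type in mESC (5.97 points, exact test, adjusted p = 0.427) and trunk minus mESC in wild type (7.47, 0.427), and mostly unmethylated reads, knockout minus wild type in trunk (-11.5, 0.108). The others were reads between the bounds in all 4 comparisons, in the order above (10.7, -13.0, 11.1 and -12.7 points, adjusted p = 0.228, 0.208, 0.239 and 0.201 by Fisher's exact test). Mean phi became 0.257, 0.125, 0.0999 and 0.0740 in wild-type mESC, knockout mESC, wild-type trunk and knockout trunk, and 0.120, 0.108, 0.0386 and 0.0208 in mixed reads alone. With patterns counted once the intervals of 2 differences in mean phi included 0, knockout minus wild type in trunk (-0.0258) and trunk minus mESC in the knockout (-0.0508). In mixed reads alone so did those of knockout minus wild type in mESC (-0.0121) and in trunk (-0.0179).

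With a minimum difference of 30 points 3, 1, 3 and 3 CpGs were called in the 4 comparisons. In the contrast of mixed reads at the IG-TRE spacing, the IG-TRE minus IG-CGI difference in wild-type mESC became 5.43 points (exact test, adjusted p = 0.110) and the IG-TRE minus Gtl2-DMR difference in knockout mESC 37.3 (1.27e-05). With 1 to 6 of 7 methylated the latter became 25.3 (0.00253) and the IG-TRE minus IG-CGI difference in knockout trunk 15.1 (0.000599, against -3.48). Beyond what each setting's construction shows, the cause was not tested.

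No paired analysis was possible because each group had 1 library and the labels give no replicate numbers, and for the same reason no replicate was left out. Depth limits the far end of the amplicon most, where CpG 339 had 138 to 271 calls.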
